A study of Mus musculus with 6 samples.

Results

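The Toll-like receptor genes *Tlr1*, *Tlr2*, *Tlr3*, *Tlr4*, *Tlr5*, *Tlr6*, *Tlr7*, *Tlr8*, *Tlr9* and *Tlr13* were read from the RNA-sequencing data of Raw264.7 macrophages with reduced *Etv5* expression. They were chosen by gene symbol, and all 10 were found among the 24786 symbols with a value. The surface receptors are *Tlr1*, *Tlr2*, *Tlr4*, *Tlr5* and *Tlr6* (5 genes), and the endosomal receptors are *Tlr3*, *Tlr7*, *Tlr8*, *Tlr9* and *Tlr13* (5 genes). Polyadenylated RNA of Raw264.7, a mouse macrophage line from a tumor induced by Abelson murine leukemia virus, was sequenced in 6 libraries. The sh-NC group (genotype control, n = 3 libraries) was infected with a lentivirus carrying a control shRNA, and the sh-*Etv5* group (n = 3 libraries) with one carrying an shRNA against *Etv5*. All 6 libraries thus come from cells infected with a lentivirus that carried an shRNA. The methods of the study describe puromycin in the medium of Raw264.7 cells infected in this way. The labels name no receptor ligand or other stimulus for either group. The labels give C57BL/6 as strain, postnatal day 21 as age and expression read at 24 or 48 h after infection, with Lipofectamine, a transfection reagent, present, whereas the text of the study describes the sequenced cells as stably transfected. Raw264.7 is otherwise described as a line of BALB/c origin, so strain and age were taken only as labels. Which shRNA was sequenced, and whether a group had separate infections behind its libraries, is not given in the sources used here. The p-values therefore measure the spread between libraries, which may be technical.

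Toll-like receptors are transmembrane proteins that bind conserved parts of microbes, or nucleic acids, through leucine-rich repeats and signal through a cytoplasmic TIR domain to NF-κB and interferon regulatory factors. Surface receptors recognize lipoproteins, lipopolysaccharide and flagellin, and TLR2 binds lipoproteins as a heterodimer with TLR1 or TLR6. Endosomal receptors recognize nucleic acids, have to be carried there from the endoplasmic reticulum by UNC93B1, and several of them are cut by endolysosomal proteases before they can signal. Macrophages express members of both classes.

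Levels are given as RPKM, that is reads scaled by gene length and by the mapped reads of a library, so that levels of genes of different length can be set side by side. Read numbers per library are unknown from these values, so counting errors could not be given. The libraries were compared with limma on log2(RPKM + 1) over the 10738 genes that reached 1 RPKM in at least 3 libraries, and a gene was called at a Benjamini-Hochberg adjusted p under 0.05. On this scale the change of a gene at low RPKM is understated. The smallest p that an exact permutation test allows for 3 against 3 libraries is 0.1. The knockdown target *Etv5* averaged 9.49 ± 0.367 RPKM in the controls (sh-NC) and 5.13 ± 0.196 RPKM in the knockdown libraries (sh-*Etv5*; SD, n = 3), without overlap. Of its 50-base transcript sequences, 24.5% occur in another gene, mainly *Gm4798*, and 15.2% of its 100-base sequences do. The 9 listed macrophage markers summed to 3872 to 3977 RPKM per control library, and to 2867 to 2943 RPKM per knockdown library. *Lyz2* made up most of both sums, with means of 2834 RPKM in sh-NC and 2041 RPKM in sh-*Etv5* libraries. *Adgre1* averaged only 2.60 RPKM in the controls and 11.3 RPKM after knockdown. Of the 9 markers, 3 were called higher (*Adgre1*, *Itgam*, *Spi1*) and 4 lower (*Csf1r*, *Cd68*, *Lyz2*, *Fcgr1*). *Ptprc* was not called, and *Mertk* stayed under 0.1 RPKM. The 4 B cell, 4 T cell, 4 dendritic cell and 4 fibroblast markers each stayed under 1 RPKM in all libraries, with *Col1a2* listed at 0 throughout. Their summed levels per library, controls first, were 0.0367 to 0.199 and 0.256 to 0.733 RPKM for the B cell list, 0.0156 to 0.0426 and 0.0152 to 0.101 RPKM for the T cell list, 0.700 to 1.05 and 0.277 to 0.310 RPKM for the dendritic cell list, and 0.0112 to 0.0222 and 0.112 to 0.164 RPKM for the fibroblast list. Of the 4 neutrophil markers, *S100a8* was at 0.123 to 0.491 RPKM in sh-NC and at 15.5 to 19.7 RPKM in sh-*Etv5* libraries, whereas *Ly6g* and *S100a9* were listed at 0 in each library and *Mpo* was at most 0.021 RPKM. The part of these marker differences in the receptor results was not tested. In these bulk samples, fewer cells expressing a receptor and less receptor RNA per cell cannot be told apart.

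Within the family, *Tlr1* and *Tlr6* rose and *Tlr2*, *Tlr4*, *Tlr7* and *Tlr13* fell in sh-*Etv5* cells, while *Tlr3* and *Tlr9* were not called. The remaining members, *Tlr5* and *Tlr8*, stayed under 1 RPKM and were not tested. Each of the 8 tested receptors was above 1 RPKM in all 6 libraries, so none passed the filter through 1 group alone. The 6 called receptors compare with a background of 74.3% of the tested genes called, and a share of that size is near the background. In the same fit, 33.3% of all tested genes were called higher and 41.0% were called lower, beside 2 and 4 of the 8 tested receptors. The groups did not overlap in those 6 receptors, against 76.4% of all tested genes. An absolute log2 fold change above 1 was reached by 9.23% of all tested genes, and here by *Tlr7* and *Tlr13* (2 of 8). *Tlr1* was just under this limit at 0.9991, and above it with 0.1 (1.19) or 0.01 (1.22) added to RPKM in place of 1. The median log2 fold change over all tested genes was -0.05, with quartiles at -0.34 and 0.28, and each of the 6 called receptors lay outside these quartiles.

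**Figure D1:**
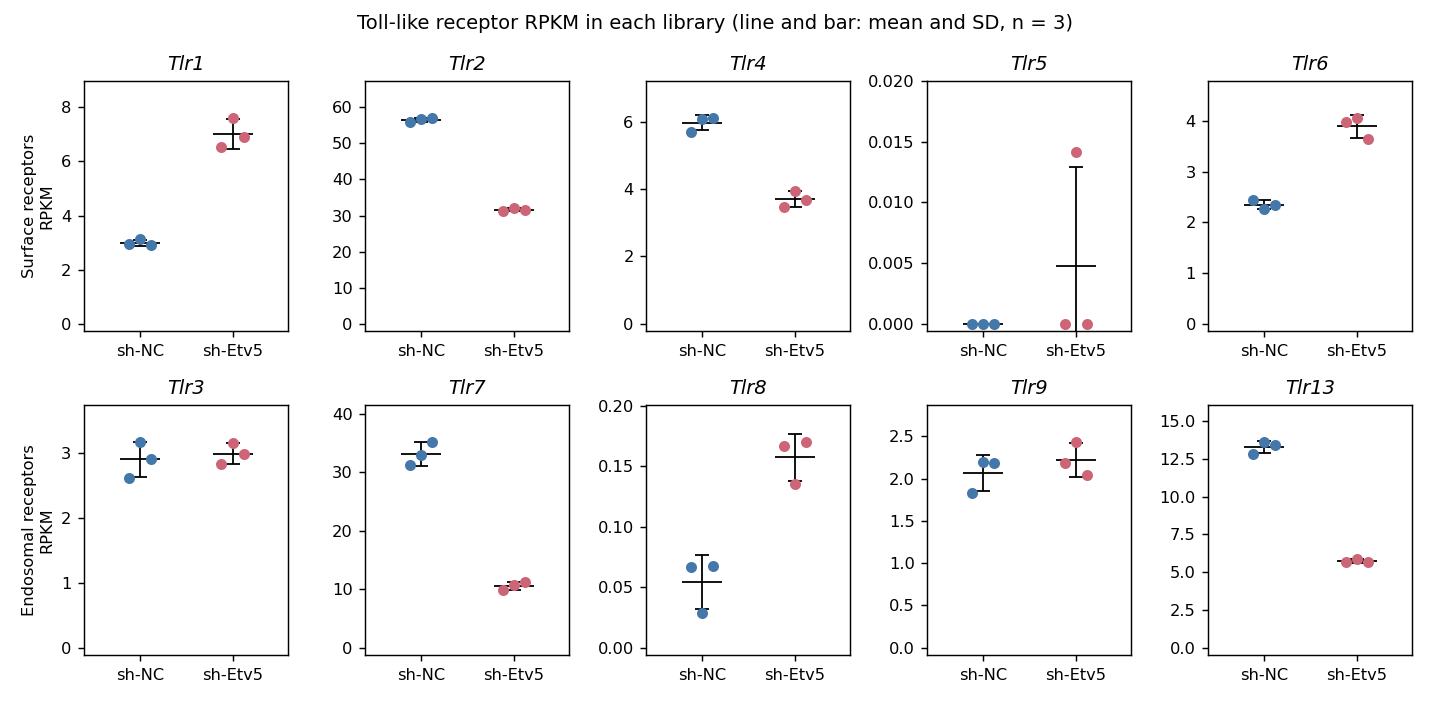
RPKM of each Toll-like receptor (y axes, linear, with a separate scale per gene) in the 3 sh-NC and 3 sh-*Etv5* libraries; points are libraries, the wide line is the mean and the bar the SD, with surface receptors above and endosomal receptors below. The groups are apart for *Tlr1*, *Tlr2*, *Tlr4*, *Tlr6*, *Tlr7* and *Tlr13*, they overlap for *Tlr3* and *Tlr9*, and *Tlr5* and *Tlr8* stay under 0.2 RPKM.

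Among the surface receptors, *Tlr2* encodes the subunit shared by the lipoprotein receptors. The controls gave 56.0, 56.7 and 57.0 RPKM for *Tlr2*, and the knockdown libraries gave 31.2, 32.0 and 31.7 RPKM, each in the order of replicates 1 to 3, as throughout. All 3 knockdown libraries were far below the controls, with little spread within a group. The level fell by 44.1% on average, from 56.6 ± 0.532 to 31.6 ± 0.386 RPKM (SD, n = 3). On the log2 scale this was -0.82 (standard error 0.0343, 95% confidence interval -0.89 to -0.74, limma adjusted p = 3.09e-09). *Tlr2* is a minus-strand gene of chromosome 3, positions 83836272 to 83841767 (GRCm38, GENCODE release M21), and its coding sequence of 784 codons is held in 1 exon.

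*Tlr1* encodes the partner of TLR2 for triacylated lipoproteins and moved in the opposite direction to *Tlr2*. Its levels were 2.96, 3.13 and 2.91 RPKM in the controls, against 6.51, 7.59 and 6.91 RPKM after knockdown. Each knockdown library was above each control, with a wider spread in the sh-*Etv5* group. The mean rose 2.34-fold, from 2.999 ± 0.114 to 7.004 ± 0.549 RPKM (SD, n = 3). The limma estimate of its log2 fold change, 1.00 (standard error 0.0681, interval 0.85 to 1.15, limma adjusted p = 1.59e-07), is just under 1 before rounding. Of all tested genes, 6.25% had a higher log2 fold change.

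*Tlr6* encodes the partner of TLR2 for diacylated lipoproteins and lies next to *Tlr1*. For *Tlr6* the controls gave 2.45, 2.26 and 2.34 RPKM, and the knockdown libraries 3.98, 4.06 and 3.64 RPKM. The groups did not overlap. *Tlr6* rose by 65.6%, from 2.35 ± 0.0938 to 3.89 ± 0.221 RPKM (SD, n = 3). On the log2 scale the rise was 0.55 (standard error 0.0684, interval 0.39 to 0.70, limma adjusted p = 2.53e-05). The RNA balance of the lipoprotein receptor subunits differed between the groups accordingly, and protein was not measured. The level of *Tlr2* divided by the summed level of *Tlr1* and *Tlr6* was 10.4, 10.5 and 10.9 in the controls, against 2.98, 2.75 and 3.002 after knockdown. *Tlr2* thus remained the most abundant of these transcripts in both groups, by a smaller margin in sh-*Etv5* cells. Reads that fit both *Tlr1* and *Tlr6* may enter this ratio, and their part was not tested.

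*Tlr1* and *Tlr6* share sequence, which bears on how far their values are separate. Both are encoded on the minus strand of chromosome 5, *Tlr1* from 64924679 to 64933563 and *Tlr6* from 64952031 to 64960097, with 18467 bases between them. Their coding sequences have 795 and 806 codons, each in 1 exon. Of the 50-base sequences in annotated *Tlr1* transcripts, 15.4% also occur in another gene, mainly *Tlr6*, and for *Tlr6* the share is 12.3%. With 100-base sequences the shares were 7.89% and 7.09%, whereas for *Tlr2*, *Tlr3*, *Tlr5*, *Tlr7*, *Tlr8*, *Tlr9* and *Tlr13* they were 0 at both lengths. The longest identical run covers 229 bases of both coding sequences. It is shown because reads within it cannot be assigned to one of the genes, as transcript sequence with 30 bases on each side, read from GRCm38 (minus strand, chr5:64925507-64925795 for *Tlr1* and chr5:64953798-64954086 for *Tlr6*). Capitals mark the 2 positions of these 289 bases at which the genes differ.
Tlr1: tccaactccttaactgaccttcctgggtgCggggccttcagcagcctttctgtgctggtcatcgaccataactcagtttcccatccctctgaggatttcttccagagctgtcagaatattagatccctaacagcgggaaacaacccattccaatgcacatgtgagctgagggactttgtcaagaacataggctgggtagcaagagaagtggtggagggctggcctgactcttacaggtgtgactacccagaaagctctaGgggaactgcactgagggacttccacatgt
Tlr6: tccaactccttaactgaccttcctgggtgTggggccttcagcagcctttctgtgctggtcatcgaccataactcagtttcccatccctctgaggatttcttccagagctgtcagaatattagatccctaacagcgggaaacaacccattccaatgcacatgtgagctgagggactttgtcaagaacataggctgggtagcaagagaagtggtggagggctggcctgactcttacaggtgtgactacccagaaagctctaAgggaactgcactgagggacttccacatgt

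How reads that fit both genes were counted is not given in the sources used here. Suppose that each read within shared 50-base sequences was counted for both genes, at even coverage. The rise of *Tlr1* by 4.005 RPKM would then have added at most 0.493 RPKM to *Tlr6*, which is 32.0% of the rise of *Tlr6*. In the other direction, the rise of *Tlr6* by 1.54 RPKM would have added at most 0.237 RPKM to *Tlr1*, or 5.91% of its rise. Under this assumption both values are upper bounds, since the shares count sequences found in any other gene. The measured rises would also already hold the shared reads. Read length is not given either, and the part of shared reads in both rises was not tested.

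*Tlr4*, the receptor for lipopolysaccharide, reached 5.70, 6.07 and 6.10 RPKM in the controls, and 3.47, 3.95 and 3.68 RPKM after knockdown. The knockdown libraries were all below the controls. *Tlr4* fell by 37.9%, from 5.96 ± 0.224 to 3.70 ± 0.236 RPKM (SD, n = 3). The limma estimate was -0.57 on the log2 scale (standard error 0.0643, interval -0.71 to -0.43, limma adjusted p = 1.08e-05). *Tlr5*, the receptor for flagellin, was listed at 0 in 5 libraries and at 0.0142 RPKM in sh-*Etv5* replicate 2, so that no difference was detectable. Both are plus-strand genes, *Tlr4* on chromosome 4 (66827584 to 66930284) and *Tlr5* on chromosome 1 (182954788 to 182976044).

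Taking the 4 tested surface receptors side by side, 2 rose and 2 fell, with log2 fold changes from -0.82 to 1.00. Their median of -0.01 falls between the pairs and its sign changes with the pseudocount, the filter and 1 left-out library.

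**Figure D2:**
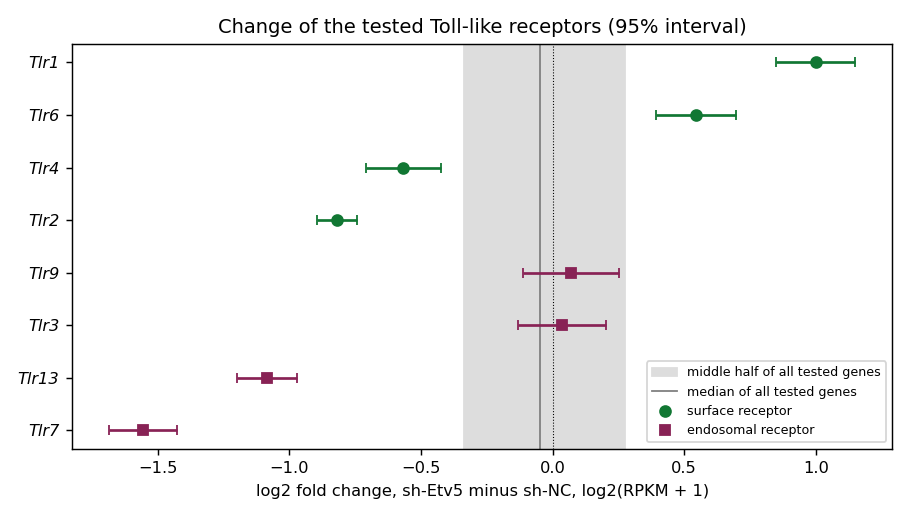
Log2 fold change of the 8 tested receptors (x axis, sh-*Etv5* minus sh-NC on the log2(RPKM + 1) scale); points are limma estimates, bars their 95% confidence intervals, the grey band runs from -0.34 to 0.28 (quartiles of all tested genes) and the grey line marks their median of -0.05. The intervals of *Tlr3* and *Tlr9* include 0 and the others do not; the estimates of *Tlr3* and *Tlr9* turn negative with quantile normalization, and that of *Tlr3* also when all libraries are rescaled to 1 sum.

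The proteins that present ligands to the surface receptors or bind to them were read from a list of 9 genes. Of the 7 tested, 5 were called, a share near the background of 74.3%. *Cd36* passed the filter only through the sh-*Etv5* group, and of the other 6 tested genes 2 rose, 2 fell and 2 were not called. *Ly96* encodes the co-receptor through which TLR4 binds lipopolysaccharide. The controls gave 4.43, 5.24 and 4.34 RPKM for *Ly96*, and the knockdown libraries, which overlapped them, gave 5.17, 6.90 and 4.16 RPKM. Its log2 fold change of 0.16 was not called (limma adjusted p = 0.286), but it rested on single libraries, since it was 0.30 without sh-*Etv5* replicate 3 (adjusted p = 0.0262) and -0.00252 without sh-*Etv5* replicate 2 (adjusted p = 0.983). *Cd14*, which hands lipopolysaccharide to TLR4 and lipopeptides to TLR2, reached 640, 618 and 625 RPKM in the controls, and 761, 720 and 755 RPKM after knockdown, above each receptor in each library. Its rise was small (log2 fold change 0.25, limma adjusted p = 4.58e-05).

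*Cd180* encodes a relative of TLR4 without a TIR domain, and *Ly86* its secreted partner. *Cd180* fell from 35.8, 34.1 and 37.5 RPKM in the controls to 23.6, 23.3 and 22.99 RPKM (log2 fold change -0.60, limma adjusted p = 2.71e-07). *Ly86* fell as well, from 80.3 ± 2.01 to 61.8 ± 2.02 RPKM (SD, n = 3; log2 fold change -0.37, limma adjusted p = 3.87e-06). Both genes of this complex were thus lower in all knockdown libraries than in all controls. *Itgam*, the integrin subunit CD11b, rose from 34.1, 34.3 and 32.9 RPKM in the controls to 129, 133 and 119 RPKM (log2 fold change 1.88, limma adjusted p = 3.20e-11). *Cd36*, a scavenger receptor that acts with TLR2 and TLR6, gave 0.380, 0.306 and 0.391 RPKM in the controls, against 16.7, 16.3 and 16.9 RPKM after knockdown. It entered the test only through the group where it was high, and without sh-*Etv5* replicate 1, 2 or 3 it was not tested. *Lbp* and *Tril* were listed at 0 in each library.

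Among the endosomal receptors, *Tlr7*, which binds single-stranded RNA, had the largest change of the family. The controls gave 31.2, 32.9 and 35.2 RPKM for *Tlr7*, and the knockdown libraries gave 9.85, 10.8 and 11.1 RPKM. The highest knockdown library was far below the lowest control. *Tlr7* fell by 68.0%, from 33.1 ± 2.001 to 10.6 ± 0.671 RPKM (SD, n = 3). On the log2 scale this was -1.56 (standard error 0.0578, interval -1.68 to -1.43, limma adjusted p = 1.15e-09). Of all tested genes, 76 (0.708%) had a lower log2 fold change. *Tlr7* is a minus-strand gene of the X chromosome (167304929 to 167330558) with 1050 codons.

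*Tlr13*, which recognizes bacterial ribosomal RNA and has no functional counterpart in humans, fell as well. Its levels were 12.8, 13.6 and 13.4 RPKM in the controls, against 5.68, 5.88 and 5.64 RPKM after knockdown. The groups were apart, and the spread within each was small. On average it fell by 56.9%, from 13.3 ± 0.408 to 5.73 ± 0.126 RPKM (SD, n = 3). The limma estimate was -1.09 on the log2 scale (standard error 0.0511, interval -1.20 to -0.97, limma adjusted p = 7.55e-09). A lower log2 fold change was seen in 2.20% of the tested genes. *Tlr13* is also on the X chromosome (plus strand, 106143204 to 106160493).

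The other tested endosomal receptors gave no such difference. *Tlr3*, the receptor for double-stranded RNA, reached 2.61, 3.17 and 2.90 RPKM in the controls, and 2.83, 3.15 and 2.97 RPKM after knockdown. The groups overlapped, and the log2 fold change was 0.03 (interval -0.13 to 0.20, limma adjusted p = 0.691). *Tlr9*, the receptor for unmethylated CpG DNA, reached 1.82, 2.19 and 2.19 RPKM in the controls, and 2.18, 2.44 and 2.04 RPKM after knockdown. Here too the groups overlapped, and the log2 fold change was 0.07 (interval -0.11 to 0.25, limma adjusted p = 0.463). Both intervals leave room for small changes in either direction, and both exclude a fall of the size seen for *Tlr7* or *Tlr13*. An exon of *Tlr3* (minus strand of chromosome 8, 45395665 to 45411080) overlaps an exon of *Gm45542* on the opposite strand, and whether counting used strand is not given in the sources used here.

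*Tlr8*, the neighbor of *Tlr7*, reached 0.0670, 0.0288 and 0.0673 RPKM in the controls, and 0.167, 0.135 and 0.170 RPKM after knockdown. The knockdown libraries were above the controls, all at levels far under the filter. Without the filter its log2 fold change was 0.13 on the log2(RPKM + 1) scale (limma adjusted p = 0.00336 over 17831 genes). *Tlr8* is on the same strand as *Tlr7* (167242696 to 167264329), with 40599 bases between it and *Tlr7*, and the transcripts share no 50-base sequence. The remaining mouse family genes, *Tlr11* and *Tlr12*, were listed at 0 in each library.

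Of the 4 tested endosomal receptors, 2 fell and 2 were not called, with log2 fold changes from -1.56 to 0.07 and a median of -0.53. That median is 0.0347 without the filter, where *Tlr8* is added, and -1.32 with a mean of 5 RPKM, where *Tlr7* and *Tlr13* remain. The ratio of *Tlr7* to *Tlr9*, which respond to RNA and DNA, was 17.1, 15.0 and 16.1 in the controls, against 4.52, 4.43 and 5.46 after knockdown. *Tlr7* exceeded *Tlr9* in all libraries, by a smaller margin after knockdown.

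Summed over the family, receptor RNA was lower in each sh-*Etv5* library. The sum of the 10 receptors came to 119 ± 3.32 RPKM in sh-NC cells, against 67.9 ± 2.05 RPKM after knockdown (SD, n = 3). The surface receptors summed to 67.9 ± 0.692 and 46.2 ± 1.25 RPKM, and the endosomal receptors to 51.4 ± 2.64 and 21.7 ± 0.878 RPKM. The endosomal share of the receptor sum was 42.0, 43.2 and 44.02% in the controls, against 31.4, 32.0 and 32.4% after knockdown. The mean share was 11.2 percentage points lower in sh-*Etv5* cells, and the groups did not overlap; these sums over chosen genes are given as a description, without a test.

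The makeup of each class was carried by few genes. *Tlr2* held 47.4 ± 0.884% of the receptor sum in sh-NC and 46.6 ± 0.841% in sh-*Etv5* cells (SD, n = 3), with overlapping libraries. The share of *Tlr7* was 27.7 ± 0.962% and 15.6 ± 0.761%, and that of *Tlr1* 2.52 ± 0.117% and 10.3 ± 0.497%. *Tlr7* thus lost share and *Tlr1* gained it in all 3 knockdown libraries. *Tlr13* lost share as well (mean 11.1% in sh-NC and 8.45% in sh-*Etv5*). The other endosomal receptors, *Tlr3* (2.42% and 4.39%), *Tlr9* (1.73% and 3.26%) and *Tlr8*, gained share of the smaller sum. The lower endosomal share was thus that of *Tlr7* and *Tlr13*, not of the whole class.

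**Figure D3:**
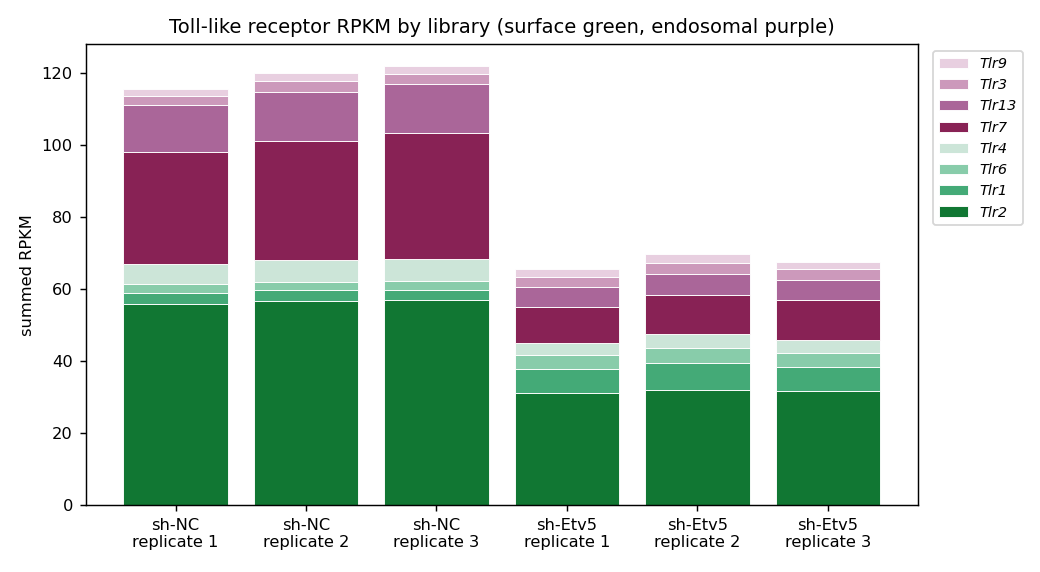
Stacked RPKM (y axis, linear, from 0) of the 8 tested receptors in each of the 6 libraries (x axis), surface receptors in green and endosomal receptors in purple. The stacks are near 119 RPKM in the controls and near 67.9 RPKM after knockdown, and the purple part shrinks from 43.1% to 31.9% of the sum on average.

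The order of levels also differed. In sh-NC cells it ran from *Tlr2* through *Tlr7*, *Tlr13*, *Tlr4*, *Tlr1*, *Tlr3*, *Tlr6*, *Tlr9* and *Tlr8* to *Tlr5*, and of neighbors in this order the libraries overlapped only for *Tlr1* and *Tlr3*. In sh-*Etv5* cells *Tlr2* and *Tlr7* were followed by *Tlr1*, *Tlr13*, *Tlr6*, *Tlr4*, *Tlr3*, *Tlr9*, *Tlr8* and *Tlr5*, and only *Tlr6* and *Tlr4* overlapped. *Tlr1* went from rank 5 to rank 3 and passed *Tlr13*. *Tlr2* stood at the 95.5 percentile of all gene symbols in sh-NC and at the 91.8 percentile in sh-*Etv5* cells.

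The machinery that folds and carries the receptors did not move in 1 direction. Of 18 tested genes, 9 rose, 8 fell and 1 was not called, beside 33.3% of all tested genes called higher and 41.0% called lower. The median log2 fold change was 0.05, beside -0.05 over all tested genes. *Unc93b1*, the escort of the endosomal receptors, rose from 111, 102 and 106 RPKM in the controls to 122, 119 and 114 RPKM. This rise was small (log2 fold change 0.15, limma adjusted p = 0.00564) and was lost when all libraries were rescaled to 1 sum (adjusted p = 0.0662). *Hsp90b1*, the chaperone that folds most Toll-like receptors, rose from 351 ± 10.9 to 586 ± 21.99 RPKM (SD, n = 3; log2 fold change 0.74, limma adjusted p = 1.43e-08). *Cnpy3*, the cochaperone that works with it on these receptors, fell from 31.5 ± 0.804 to 21.4 ± 1.11 RPKM (log2 fold change -0.54, limma adjusted p = 1.04e-06). Chaperone and cochaperone thus changed in opposite directions.

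The genes with the largest changes of this list, *Slc15a3* and *Rab7b*, encode proteins of the endolysosome. *Slc15a3*, a lysosomal peptide and histidine transporter, rose from 24.2, 24.3 and 23.4 RPKM in the controls to 242, 241 and 229 RPKM (log2 fold change 3.25, limma adjusted p = 7.32e-14). Its relative *Slc15a4*, required for signaling by TLR7 and TLR9, fell from 17.5, 17.6 and 17.6 RPKM to 11.9, 12.5 and 12.7 RPKM (log2 fold change -0.47, limma adjusted p = 2.43e-06). *Rab7b*, a GTPase of late endosomes, fell from 11.96 ± 0.482 to 3.54 ± 0.299 RPKM (SD, n = 3; log2 fold change -1.52, limma adjusted p = 3.49e-09). The paired transporters thus moved apart, and *Rab7b* changed by about as much as *Tlr7*.

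Of 14 listed endolysosomal genes, mostly proteases and nucleases, some of which trim the endosomal receptors or their ligands, 13 were tested. Of these, 7 rose, 4 fell and 2 were not called. Over all tested genes 33.3% were called higher and 41.0% lower. The median log2 fold change of the list was 0.33. *Ctsl*, which encodes cathepsin L, rose from 57.5, 59.7 and 59.5 RPKM in the controls to 151, 151 and 162 RPKM (log2 fold change 1.38, limma adjusted p = 1.26e-10). *Ctsh*, which encodes cathepsin H, fell from 7.89, 6.88 and 7.82 RPKM to 1.75, 1.44 and 2.12 RPKM (log2 fold change -1.63, limma adjusted p = 3.72e-08). *Pld3*, a lysosomal exonuclease for single-stranded nucleic acids that activate TLR9, rose from 21.3 ± 0.619 to 54.9 ± 2.51 RPKM (SD, n = 3; log2 fold change 1.32, limma adjusted p = 4.80e-10). Cathepsins changed in both directions. The list holds *Rnaset2a* and *Rnaset2b*, near-identical copies whose values are uncertain, and both are counted among the 7 that rose.

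Downstream of the receptors, 23 of 24 listed signaling genes were tested, mostly adaptors and kinases but also interferon regulatory factors. Of these 23, 10 rose, 11 fell and 2 were not called (median log2 fold change -0.12). The background was again 33.3% higher and 41.0% lower. *Myd88*, the adaptor of every member but *Tlr3*, fell from 47.4, 47.9 and 47.5 RPKM in the controls to 35.4, 35.3 and 33.5 RPKM (log2 fold change -0.44, limma adjusted p = 8.59e-07). *Irak3*, an inhibitory kinase relative of the receptor complex, rose from 2.08, 2.83 and 2.42 RPKM to 35.5, 38.2 and 35.9 RPKM (log2 fold change 3.45, limma adjusted p = 1.54e-11). *Ikbke*, a kinase that activates interferon regulatory factors, had a log2 fold change of 1.67, and *Pik3ap1*, an adaptor to phosphoinositide 3-kinase, of 1.45. *Myd88* was thus lower and *Irak3* higher in all knockdown libraries, while the list as a whole changed in both directions.

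**Figure D4:**
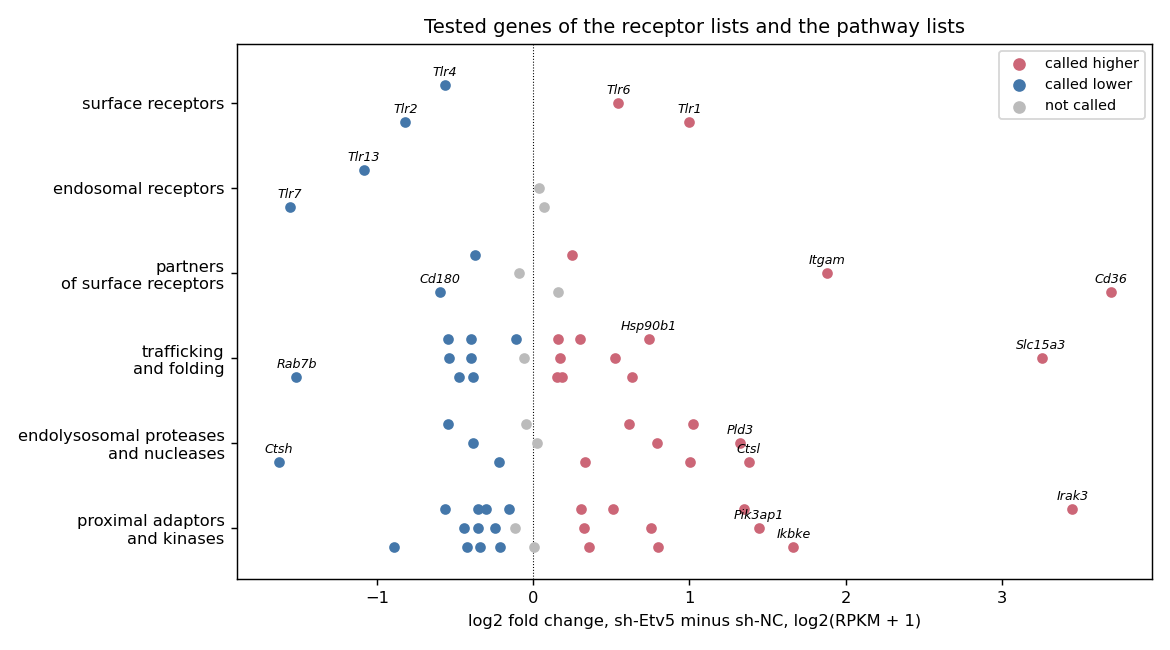
Log2 fold change (x axis, sh-*Etv5* minus sh-NC on the log2(RPKM + 1) scale) of each tested gene of the receptor classes and of the 4 pathway lists (y axis; points are spread vertically within a list for legibility). Red points were called higher, blue points lower and grey points not called, and each pathway list holds both red and blue points, from *Ctsh* at -1.63 to *Irak3* at 3.45; *Cd36*, at 3.70, was tested only through the sh-*Etv5* group; the call of *Unc93b1* is lost when all libraries are rescaled to 1 sum.

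The tested genes whose 6 values lay nearest to those of *Tlr1*, by Euclidean distance of log2(RPKM + 1), were *Zdhhc24* (distance 0.161), *Klf7* (0.184) and *Xrcc5* (0.206). For *Tlr7* they were *Ccnf* (0.286), *Kif11* (0.315) and *Adssl1* (0.413). *Klf7* gave 3.21, 3.07 and 2.82 RPKM in the controls, against 7.15, 8.10 and 6.57 RPKM after knockdown. *Ccnf* gave 34.3, 34.05 and 34.4 RPKM in the controls, against 11.4, 12.1 and 10.99 RPKM. With 6 libraries in 2 groups, this measure ranks genes by a like level and a like difference between the groups.

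Promoters of the members were read from RefSeq (GRCm38.p6), from 250 bases before to 50 bases after each start. Windows were found for 8 of the 10 members (10 windows in all), and *Tlr4* and *Tlr7* had none. They were searched on both strands for CCGGAAGT and GAGGAAGT (ETS factors, the family of ETV5, the second the form bound by PU.1), GGAANTTCC (NF-κB), GAAANNGAA (interferon response) and TGANTCA (AP-1). These occurred in 3.89%, 3.20%, 0.928%, 8.56% and 7.81% of all 32851 windows of that length. A match to any of these was found for 4 members. The share of all windows with a match to any of them was not calculated. *Tlr1* held GAGGAAGT 23 bases before a start, and *Tlr6* held a pair of overlapping matches to GAAANNGAA, on the opposite strand, 115 and 109 bases before a start. *Tlr8* held GAAANNGAA on the opposite strand, 67 bases before its start. *Tlr9* held TGANTCA, which reads alike on both strands, 58 bases before its start. It also held GAGGAAGT on the opposite strand, 10 bases after that start. These letters were not found in the windows of *Tlr2*, *Tlr3*, *Tlr5* and *Tlr13*. *Tlr1* and *Tlr6* each also had a window at another start, and none of these letters was found there. For these neighbors the windows with a match are shown, since these are the members that rose. The *Tlr1* window is shown up to the first annotated exon base (minus strand, chr5:64933564-64933808). The *Tlr6* window is shown over the 250 bases before its start, which lies inside the annotated span of *Tlr6* (minus strand, chr5:64959167-64959416). Capitals mark the matches, and a match is not evidence of binding.
Tlr1: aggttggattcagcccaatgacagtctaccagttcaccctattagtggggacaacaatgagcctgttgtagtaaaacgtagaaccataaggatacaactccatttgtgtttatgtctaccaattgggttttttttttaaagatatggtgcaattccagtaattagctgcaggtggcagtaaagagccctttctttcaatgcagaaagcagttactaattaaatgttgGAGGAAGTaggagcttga
Tlr6: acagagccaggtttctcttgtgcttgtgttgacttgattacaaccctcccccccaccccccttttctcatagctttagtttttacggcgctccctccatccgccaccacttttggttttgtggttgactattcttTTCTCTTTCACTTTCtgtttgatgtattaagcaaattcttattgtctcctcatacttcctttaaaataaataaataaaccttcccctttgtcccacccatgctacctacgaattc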

How the data were processed

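Messenger RNA of Raw264.7 cells was sequenced in 3 sh-NC and 3 sh-*Etv5* libraries, grouped and numbered by their labels. An Illumina TruSeq RNA kit was used, and the submitters' processing notes name the mm10 build. The aligner, the annotation, the use of strand and the treatment of reads that fit several genes are not given in the sources used here. The authors deposited RPKM values derived from coverage tracks, 1 per gene symbol and library, already scaled by gene length and mapped reads. Low values were not whole multiples of a step (19.6% to 24.9% lay within 10% of one), so depth could not be recovered. A change in a few very abundant genes can therefore move the RPKM of all others.

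Genes that reached 1 RPKM in 3 or more of the 6 libraries were compared on log2(RPKM + 1) with limma 3.58.1 (R 4.3.3; eBayes, trend on intensity, no covariate, two-sided), and Benjamini-Hochberg adjusted p-values under 0.05 over all tested genes were called. The fit was tested on simulated data. Levels, sums, shares and ratios are descriptions. Of the gene symbols, 24255 (97.9%) matched GENCODE release M21 on GRCm38, from which coordinates and transcript sequences were taken with Python 3.11.15. Promoters came from RefSeq; no protein sequences were compared.

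The members and lists were chosen with earlier results of these data known. The genes named are the receptors, *Etv5*, the 3 largest changes of each list (called, without overlap of the groups), the defining partners (*Ly96*, *Cd14*, *Cd180*, *Ly86*, *Unc93b1*, *Hsp90b1*, *Cnpy3*, *Slc15a4*, *Myd88*), and the 3 genes nearest to the receptors with the largest rise and fall. *Lbp*, *Tril*, *Rnaset2a*, *Rnaset2b* and the cell type markers were named after their values were seen. Alternatives were a pseudocount of 0.1 or 0.01, dropping the filter or requiring a mean of 5 RPKM, rescaling to 1 sum for all libraries, quantile normalization, scaling without the 10 highest genes, no intensity trend, the replicate number as a block, each library left out in turn, and an absolute log2 fold change above 1. ATAC-seq data and the study's own gene sets were not used here.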

Additional observations from a re-analysis of the deposited data

How the results depend on the processing

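The calls and directions of *Tlr1*, *Tlr2*, *Tlr4*, *Tlr6*, *Tlr7* and *Tlr13* held in each alternative that tested them, with log2 fold changes of 0.95 to 1.22, -0.88 to -0.77, -0.69 to -0.53, 0.46 to 0.72, -1.64 to -1.51 and -1.21 to -1.07. Requiring a mean of 5 RPKM removes *Tlr3*, *Tlr4*, *Tlr6* and *Tlr9* and leaves 1 receptor called higher and 3 lower, and without a filter 7 receptors were called, with *Tlr8* added. Requiring an absolute log2 fold change above 1 leaves 2 receptors and 991 genes. The sign of receptors that were not called is not settled. *Tlr3* was at -0.0112 with libraries rescaled to the same sum, at -0.0499 with quantile normalization and between -0.0177 (without sh-NC replicate 1) and 0.0846 with 1 library left out. *Tlr9* was at -0.0348 with quantile normalization. *Ly96* lay between -0.00252 and 0.30 with 1 library left out. The cause of these changes of sign was not tested.

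The median of the tested surface receptors was 0.0139 with a pseudocount of 0.1, 0.0179 with 0.01, 0.00678 without a filter, 0.0900 with a mean of 5 RPKM, -0.0594 with the same sum, -0.0829 with quantile normalization, and -0.0422 to 0.0089 with 1 library left out (positive without sh-*Etv5* replicate 3). That of the endosomal receptors was 0.0347 without a filter and -1.32 with a mean of 5 RPKM, where only *Tlr7* and *Tlr13* remain. The endosomal share was 10.7 to 11.7 percentage points lower in its alternatives. Rescaling to the same sum shifted the median of the tested genes by -0.05.

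Same-numbered libraries did not deviate together (correlations 0.0739, -0.0710 and -0.0352), so the numbers were not taken as pairs. With a block for the replicate number, 7900 genes and 6 receptors were called. Depth is unknown, so levels near 0, as of *Tlr5* and *Tlr8*, have no counting error.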
